A study of Mus musculus with 17 samples.

Results

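The collagen and laminin chains of mouse dorsal root ganglia were taken as all protein-coding genes whose symbol names a collagen chain (Col1a1, Col4a2 and the like) or a laminin alpha, beta or gamma chain (Lama2, Lamb1, Lamc1 and the like). Of 78298 gene identifiers, 55 carry such a symbol, and all 55 reached a count of 10 in at least 3 libraries. The low-count filter kept 54 of them, 43 collagen and 11 laminin chains, among 23972 genes tested. Col6a6, which had no read in 7 libraries, was left out by that filter.

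Gene expression was measured by RNA sequencing of whole lumbar ganglia (L4-L6), so each value is a mixture of neurons, glia, vessels and connective tissue. The 17 libraries formed 4 groups. Wild-type mice gave 5 libraries after a sham operation and 5 after chronic constriction injury (CCI), in which ligatures are tied loosely around the sciatic nerve. Mice labelled as knockouts of Twik1, a two-pore potassium channel encoded by Kcnk1, gave 4 libraries after sham and 3 after CCI. The label day 30 is shared by all 17 libraries, and the strain, sex and age of the mice, the deleted part of Kcnk1, and whether each library is a separate animal were not given in the sources used here. P-values therefore measure only the spread between these libraries, which may be technical. In this kind of sample, fewer cells of a type and less RNA per cell cannot be told apart.

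Collagens are triple helices of 3 chains, and laminins are crosses of 1 alpha, 1 beta and 1 gamma chain. Fibrillar collagens give tissue its tensile strength, whereas type IV collagen and laminin polymerise into the layered sheets of basement membranes and are tied together by nidogen and perlecan. In a ganglion, Schwann cells, satellite glia, endothelium and the perineurial sheath rest on basement membranes, and fibroblasts between them make most fibrillar collagen. Schwann cell laminin is needed for the sorting and myelination of axons.

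The genes for some chains that assemble together lie head to head, and their starts are shown first because Col4a1 and Col4a2 are, of the partner pairs examined, the one whose levels moved most closely together, because Col3a1 had the largest of the called genotype differences in sham, and because Lamb1 was the laminin chain with the smallest p in both genotype comparisons. The windows run from 250 bases before to 50 bases after each RefSeq start and come from the RefSeq promoter table of GRCm38.p6. Each of the 4 was found at 1 place on GRCm39, which gives the coordinates here. Capitals mark GGGCGG (the GC box), CCAAT and TATAAA, searched on both strands, so that a match can also stand as its reverse complement. No capital run overlaps another in these windows.
Col4a1 (chr8:11362777-11363076, minus strand): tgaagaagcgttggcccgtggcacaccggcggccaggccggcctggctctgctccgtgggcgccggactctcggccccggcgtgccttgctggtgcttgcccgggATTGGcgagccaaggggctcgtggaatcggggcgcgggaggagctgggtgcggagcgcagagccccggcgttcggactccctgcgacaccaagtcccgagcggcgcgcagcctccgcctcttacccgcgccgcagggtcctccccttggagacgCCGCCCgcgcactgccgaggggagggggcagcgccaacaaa
Col4a2 (chr8:11362555-11362854, plus strand): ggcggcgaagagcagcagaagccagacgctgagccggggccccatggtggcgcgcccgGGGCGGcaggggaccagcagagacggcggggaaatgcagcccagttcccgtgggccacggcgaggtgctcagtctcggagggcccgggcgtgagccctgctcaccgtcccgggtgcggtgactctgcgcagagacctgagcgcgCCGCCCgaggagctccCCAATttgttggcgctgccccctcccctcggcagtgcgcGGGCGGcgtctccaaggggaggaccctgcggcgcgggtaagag
Col3a1 (chr1:45350448-45350747, plus strand): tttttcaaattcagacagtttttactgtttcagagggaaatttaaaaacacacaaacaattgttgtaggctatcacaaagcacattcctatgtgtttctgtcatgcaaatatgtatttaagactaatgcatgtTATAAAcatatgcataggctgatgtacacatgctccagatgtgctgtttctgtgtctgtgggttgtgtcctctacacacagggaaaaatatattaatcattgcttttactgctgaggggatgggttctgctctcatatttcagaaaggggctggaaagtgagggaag
Lamb1 (chr12:31315042-31315341, plus strand): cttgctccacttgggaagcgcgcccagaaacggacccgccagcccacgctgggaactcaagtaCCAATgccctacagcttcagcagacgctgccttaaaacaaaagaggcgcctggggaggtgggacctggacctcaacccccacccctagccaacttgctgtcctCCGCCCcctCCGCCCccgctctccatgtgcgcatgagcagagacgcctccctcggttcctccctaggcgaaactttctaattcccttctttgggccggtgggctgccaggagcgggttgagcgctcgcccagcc

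The Col4a1 and Col4a2 windows share 78 bases, since the RefSeq starts lie 21 bases apart on opposite strands. Both are GC-rich, with 74.0% and 73.7% G and C against a median of 52.7% over 32851 windows. The Col4a1 window held 1 GC box and 1 CCAAT box, and the Col4a2 window held 3 and 1. The Col3a1 window had 37.7% G and C, 1 TATAAA and neither of the other motifs, and the Lamb1 window had 63.7% with 2 GC boxes and 1 CCAAT box. Of the 55 chains, 40 were matched in the table. They entered with 1 window each, the first for the symbol, whereas the comparison counts all 32851 windows. GGGCGG stood in 25 of the 40 windows (62.5%) against 35.7% of all windows, CCAAT in 13 (32.5%) against 37.4%, and TATAAA in 5 (12.5%) against 13.6%. These matches describe the letters in a window and say nothing of factor binding.

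Each library held between 52.5 and 73.6 M gene counts, M standing for mega. Kcnk1 itself was not absent from the libraries labelled knockout: it ranged from 75.1 to 114 CPM (counts per M of the library total after scaling) in the 7 knockout-labelled and from 94.3 to 139 CPM in the 10 wild-type libraries. The overlap came from sham knockout library 4, at 114 CPM; the other 6 knockout-labelled libraries, at 75.1 to 91.8 CPM, lay below the 10 wild-type libraries. As the deleted part was not given, these values do not check the labels. Sensory neuron markers summed to 11199 to 14626 CPM and satellite glia markers to 3278 to 5044 CPM, so the labelled tissue was seen in each library. The deposited tables are named with a number that is the same for the 9 sham libraries and another for either CCI group. What it stands for was not stated, and it cannot be told apart from injury. Since CCI wild-type and CCI knockout libraries carry different numbers, it also cannot be told apart from genotype after CCI, and it enters the interaction and the mean genotype effect. Sham libraries of both genotypes share their number.

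Several libraries stood apart in ways that touch the chains. Sham knockout libraries 1 and 2 carried summed axon injury markers (Atf3, Sprr1a, Gal and others) of 1287 and 1104 CPM, against 559 and 486 CPM in knockout libraries 3 and 4, 441 to 642 CPM in sham wild type and 1200 to 1992 CPM in CCI wild type. Sham knockout library 4 was the only one with clear bone transcripts: Bglap, the osteoblast protein osteocalcin, was at 21.2 CPM there and at most 0.824 CPM in the other 16, and Ibsp, bone sialoprotein, was at 28.5 CPM against 4.44 to 14.3 CPM. Skeletal muscle markers summed to 953 CPM in sham knockout library 3 and to 2.57 to 269 CPM in the others. After CCI these sums were apart by genotype, at 7.47 to 99.6 CPM in wild-type and 148 to 269 CPM in knockout libraries. All 6 markers had positive genotype values in sham (median log2 fold change 1.71) and after CCI (1.67), with 0 called in either. CCI wild-type library 5 had the highest summed fibroblast markers, 2384 CPM against 1080 to 1852 CPM. Leaving out CCI wild-type library 5 gave 4 chains called for injury in wild type and 9 for genotype after CCI, against 4 and 11 with all libraries.

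Per kilobase of exon, which allows levels of different genes to be compared, type I and III collagen led the chains of sham wild-type ganglia. Col1a1 was at 29.0 ± 8.87 CPM per kb (SD, n = 5), Col3a1 at 18.7 ± 6.73, Col1a2 at 17.7 ± 3.80 and Col4a1 at 12.9 ± 1.62. Col1a1 alone made 16.9% of the summed level of the chains, and the first 5, down to Col28a1 at 9.21 ± 1.28 CPM per kb, made 51.0%. Neighbours in this order from Col3a1 to Col1a2, and from Lamb1 (8.19 ± 0.806) to Col4a2 (7.75 ± 1.18), differed by less than their SD. Lamb1 was the leading laminin beta chain, ahead of Lamb2 (5.55 ± 1.02), and Lamc1 (4.11 ± 0.509) the leading gamma chain. Among alpha chains Lama4 (2.14 ± 0.387), the alpha chain of vessel and endoneurial laminin, stood above Lama2 (1.16 ± 0.288), the alpha chain of the Schwann cell basement membrane.

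**Figure D1:**
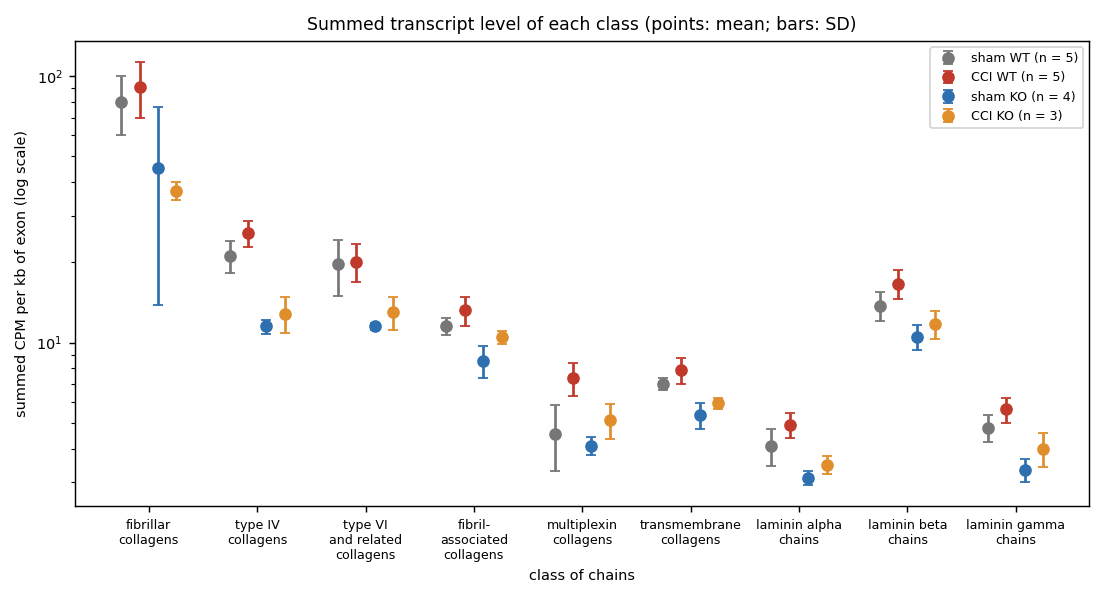
Summed level of classes of chains in CPM per kb of exon (log axis), with points for group means and bars for the SD. The short-chain network and anchoring fibril collagens are not drawn. The type IV class has means of 21.2 and 25.7 CPM per kb in the wild-type and 11.5 and 12.8 in the knockout groups.

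The sum over all 55 chains was 171.5 ± 29.9 CPM per kb in sham wild type (SD, n = 5), 197 ± 35.1 in CCI wild type (n = 5), 105.5 ± 30.5 in sham knockout (n = 4) and 106.5 ± 8.94 in CCI knockout libraries (n = 3). Both wild-type groups ranged higher than the CCI knockout group without overlap, whereas the sham knockout group (84.4 to 150.8) overlapped sham wild type (133.6 to 210.8). Type IV collagens summed to 21.2 ± 2.90, 25.7 ± 2.80, 11.5 ± 0.685 and 12.8 ± 1.98 CPM per kb in the same order of groups, and the laminin gamma chains to 4.78 ± 0.553, 5.61 ± 0.606, 3.33 ± 0.332 and 4.00 ± 0.587. For type IV both knockout groups lay below both wild-type groups. The fibril-associated collagens were closer, at 11.5 ± 0.825, 13.2 ± 1.64, 8.51 ± 1.17 and 10.5 ± 0.598.

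Between genotypes, chains were lower in the knockout-labelled libraries in sham and after CCI. In sham, 14 of 54 chains fell and 0 rose (edgeR quasi-likelihood test, adjusted p under 0.05), where 0.743% of all genes tested were called lower, 0.259% higher and 1% either way. Without sham knockout libraries 1 and 2 together, 4 fell (Col4a1, Col14a1, Lamb1 and Lamc3), and leaving out 1 library gave 8 to 18. After CCI, 11 of 54 fell and 0 rose, against 0.501% of all genes lower, 0.184% higher and 0.684% either way, and leaving out 1 library gave 4 to 15. The median log2 fold change of the 54 chains was -0.46 in sham and -0.53 after CCI, and the median of all genes tested was 0.00 and -0.01. Values were negative for 40 of 54 chains in sham and 45 of 54 after CCI. In sham, 20 chains lay lower in each knockout library than in each wild-type library and 1, Lamb3, higher (2.08% and 1.13% of all genes), and after CCI 24 lay lower and 0 higher (4.37% and 4.15%).

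The sham and CCI genotype comparisons share no library, though the CCI comparison also spans the differing numbers in the table names. Both come from 1 fit that shares each gene's estimate of spread, so their calls are not independent of each other. Of 54 chains, 41 (75.9%) had the same sign in both, against 55.9% of all genes, and 36 were negative in both. Of the 14 called in sham, 13 were also negative after CCI, the exception being Lamc3, and the 11 called after CCI were negative in sham too. The overlap of 10 chains is 71.4% of the sham calls and 90.9% of the CCI calls: Col3a1, Col5a1, Col4a1, Col4a2, Col28a1, Col26a1, Col15a1, Col23a1, Lamb1 and Lamc1. The overlap of calls over all genes was not counted, so these shares were not shown to be particular to the chains. Averaged over both treatments, the mean genotype effect was called for 22 of 54 chains, all lower, where 1.86% of all genes were lower, 0.688% higher and 2.55% called either way.

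**Figure D2:**
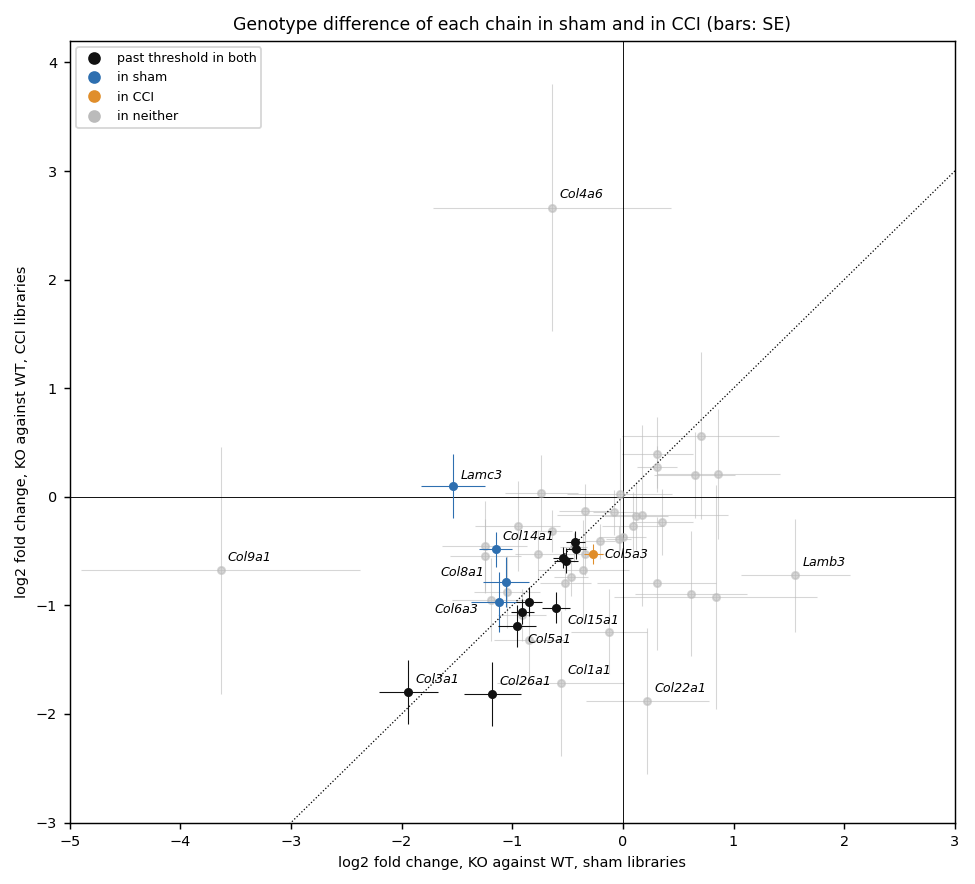
Log2 fold change of each chain, knockout-labelled against wild type, in sham (x axis) and after CCI (y axis), with SE bars and the line of equal values. Most points lie in the lower left part, and Lamc3 lies at -1.53 in sham and 0.10 after CCI.

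Among the 11 fibrillar chains, 2 fell in sham (Col3a1 and Col5a1) and 3 after CCI (Col3a1, Col5a1 and Col5a3), with class medians of -0.56 and -1.09. Col3a1 (ENSMUSG00000026043, chr1:45350698-45395840, GRCm39) encodes type III collagen, which forms fibrils with type I. It was at 200.04, 117, 203, 297 and 144 CPM in the 5 sham wild-type and 188, 181, 145, 194 and 297 CPM in the 5 CCI wild-type libraries. Its levels were 42.3, 58.6, 53.0 and 46.3 CPM in the 4 sham knockout and 55.7, 53.6 and 64.0 CPM in the 3 CCI knockout libraries. Each knockout library was lower than each wild-type library, by a group mean ratio of 3.84 in sham (log2 -1.94 ± 0.27, edgeR adjusted p = 0.00371) and 3.48 after CCI (-1.80 ± 0.29, edgeR adjusted p = 0.0134). Without sham knockout libraries 1 and 2 together, the sham value was -1.95 ± 0.37, edgeR adjusted p = 0.104, so the call was lost at a like size. After CCI the call was lost when any of the 3 CCI knockout libraries was left out (edgeR adjusted p up to 0.114).

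Col5a1 (ENSMUSG00000026837, chr2:27776397-27929526), the type V chain that starts fibril assembly, was at 25.2, 19.1, 29.9, 29.4 and 24.6 CPM in sham wild type and 31.4, 37.8, 22.5, 36.6 and 42.2 CPM in CCI wild type. In knockout libraries it was at 9.71, 12.6, 15.8 and 14.6 CPM after sham and 13.5, 15.9 and 15.3 CPM after CCI. The genotypes did not overlap in either treatment. The log2 fold change was -0.96 ± 0.17, edgeR adjusted p = 0.0113 in sham and -1.19 ± 0.19, edgeR adjusted p = 0.00668 after CCI, and the sham call was lost without sham knockout library 2 (-0.94, edgeR adjusted p = 0.0645). The CCI call was lost without any of the CCI knockout libraries (edgeR adjusted p up to 0.0697). Its partner Col5a2 ranged from 24.0 to 34.9 and 30.1 to 55.7 CPM in wild type to 10.6 to 20.6 and 16.8 to 25.4 CPM in knockout libraries, sham and CCI in that order. The groups were apart, but Col5a2 missed the threshold in each treatment (-0.91 ± 0.22, edgeR adjusted p = 0.0675, and -1.09 ± 0.24, edgeR adjusted p = 0.0612) and passed it for the mean genotype effect (-1.0 ± 0.16, edgeR adjusted p = 0.00314).

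The type I chains depended on 1 library. Col1a1 (chr11:94827050-94843868) was at 209.6, 121.7, 201, 272 and 148 CPM in sham wild type, 169.6, 159.8, 141, 188 and 297 CPM in CCI wild type, 34.7, 58.4, 54.2 and 368 CPM in sham knockout and 53.8, 57.9 and 62.4 CPM in CCI knockout libraries. Sham knockout library 4, the library with raised Bglap and Ibsp, was the highest of all 17, while the other 6 knockout libraries lay below the 10 wild-type libraries. The ratio of Col1a1 to Col3a1 per kb was 12.4 in that library against 1.28 to 1.69 in the others. The source of the high type I level there was not tested. With all libraries the sham log2 fold change of Col1a1 was -0.56 ± 0.58, edgeR adjusted p = 0.815, and without sham knockout library 4 it was -1.96 ± 0.31, edgeR adjusted p = 0.00722. After CCI the same fits gave -1.72 ± 0.67, edgeR adjusted p = 0.431 and -1.72 ± 0.31, edgeR adjusted p = 0.0213. Col1a2, the partner in the type I helix, was at 72.6, 86.1, 99.9 and 241 CPM in sham knockout libraries against 166 to 294 CPM in sham wild type, and its sham value moved from -0.85 ± 0.32, edgeR adjusted p = 0.287 to -1.38 ± 0.21, edgeR adjusted p = 0.00623. Its CCI value moved from -1.32 ± 0.36, edgeR adjusted p = 0.157 to -1.32 ± 0.21, edgeR adjusted p = 0.0145, and the mean genotype effect passed the threshold with all libraries (-1.08 ± 0.24, edgeR adjusted p = 0.027). That last call was lost without CCI wild-type library 5, sham knockout library 2 or any CCI knockout library (edgeR adjusted p up to 0.102), and without sham knockout libraries 1 and 2 together (-0.85 ± 0.22, edgeR adjusted p = 0.107). Without sham knockout library 4 the sham call count went from 14 to 18 chains and the CCI count from 11 to 15.

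**Figure D3:**
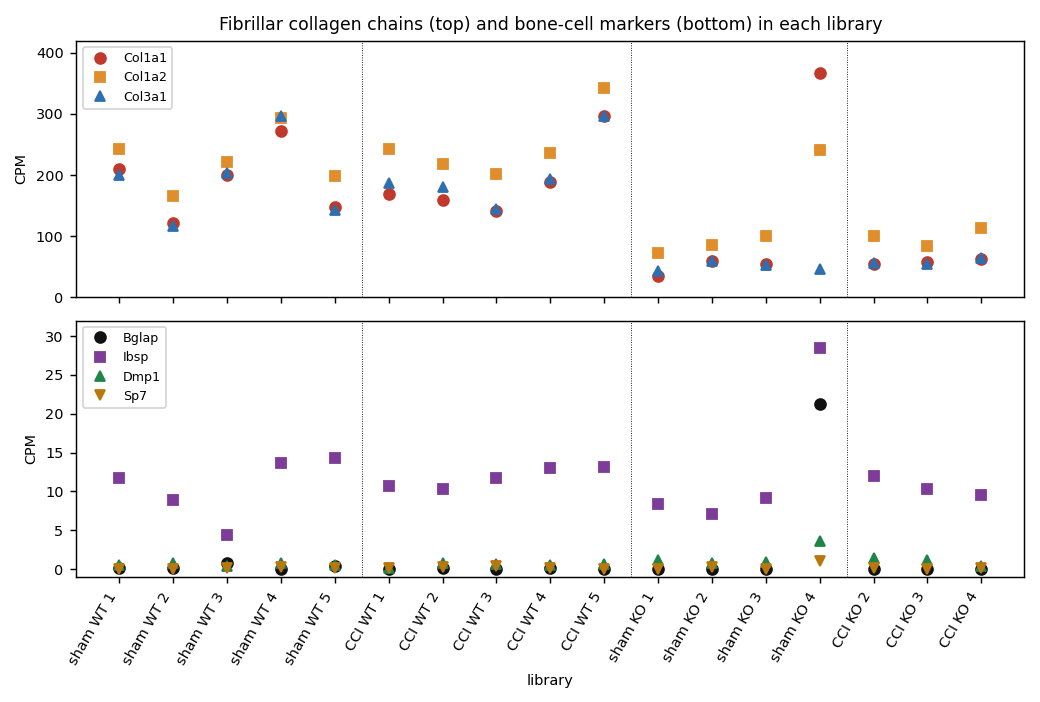
Levels of the type I and type III collagen chains and of bone markers in each of the 17 libraries, in CPM on linear axes, with dotted lines between the groups. Sham knockout library 4 has Col1a1 at 368 CPM with Col3a1 at 46.3 CPM, and it alone has Bglap above 1 CPM.

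Type IV collagen, the network of basement membranes, gave the smallest p of all chains. Col4a1 (ENSMUSG00000031502, chr8:11248423-11362826), whose start is printed above, was at 103, 82.3, 112, 87.4 and 94.7 CPM in sham wild type and 114, 105, 111, 120.4 and 136 CPM in CCI wild type. It was at 47.2, 56.9, 47.7 and 53.0 CPM in sham knockout and 57.8, 47.1 and 64.1 CPM in CCI knockout libraries. The 7 knockout libraries, up to 64.1 CPM, all lay below the 10 wild-type libraries, the lowest of which was at 82.3 CPM. The log2 fold change was -0.91 ± 0.10, edgeR adjusted p = 0.000137 in sham and -1.06 ± 0.11, edgeR adjusted p = 0.000182 after CCI, and both calls held in each of the 17 fits that left out 1 library and in the 7 other alternative fits. Col4a2 (chr8:11362471-11499287) went from 57.7, 45.6, 68.7, 53.8 and 52.4 CPM to 28.7, 28.8, 32.2 and 34.0 CPM in sham, and from 65.6, 62.1, 67.8, 63.5 and 83.8 CPM to 36.3, 28.2 and 40.8 CPM after CCI. It too did not overlap between genotypes, with values of -0.85 ± 0.12, edgeR adjusted p = 0.00101 and -0.96 ± 0.13, edgeR adjusted p = 0.00229. Without sham knockout libraries 1 and 2 together its sham value was -0.74 ± 0.16, edgeR adjusted p = 0.108.

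The other 4 type IV chains were far lower. Col4a5 ranged from 1.74 to 4.71 CPM in sham wild type to 1.12 to 1.69 CPM in sham knockout libraries without overlap, did not pass the threshold in sham (-1.04 ± 0.30, edgeR adjusted p = 0.0949) and passed it for the mean effect (-0.96 ± 0.22, edgeR adjusted p = 0.0146, -0.85, edgeR adjusted p = 0.0616 without CCI knockout library 2). Col4a3 and Col4a4, which share a head-to-head start and whose exons overlap, ranged from 0.198 to 1.67 and 0.569 to 1.80 CPM over all libraries with overlapping groups. Col4a6 had no read in 3 libraries and reached 0.213 to 0.985 CPM in CCI knockout libraries against 0 to 0.244 CPM in CCI wild type, a difference of 2.66 ± 1.14, edgeR adjusted p = 0.46.

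**Figure D4:**
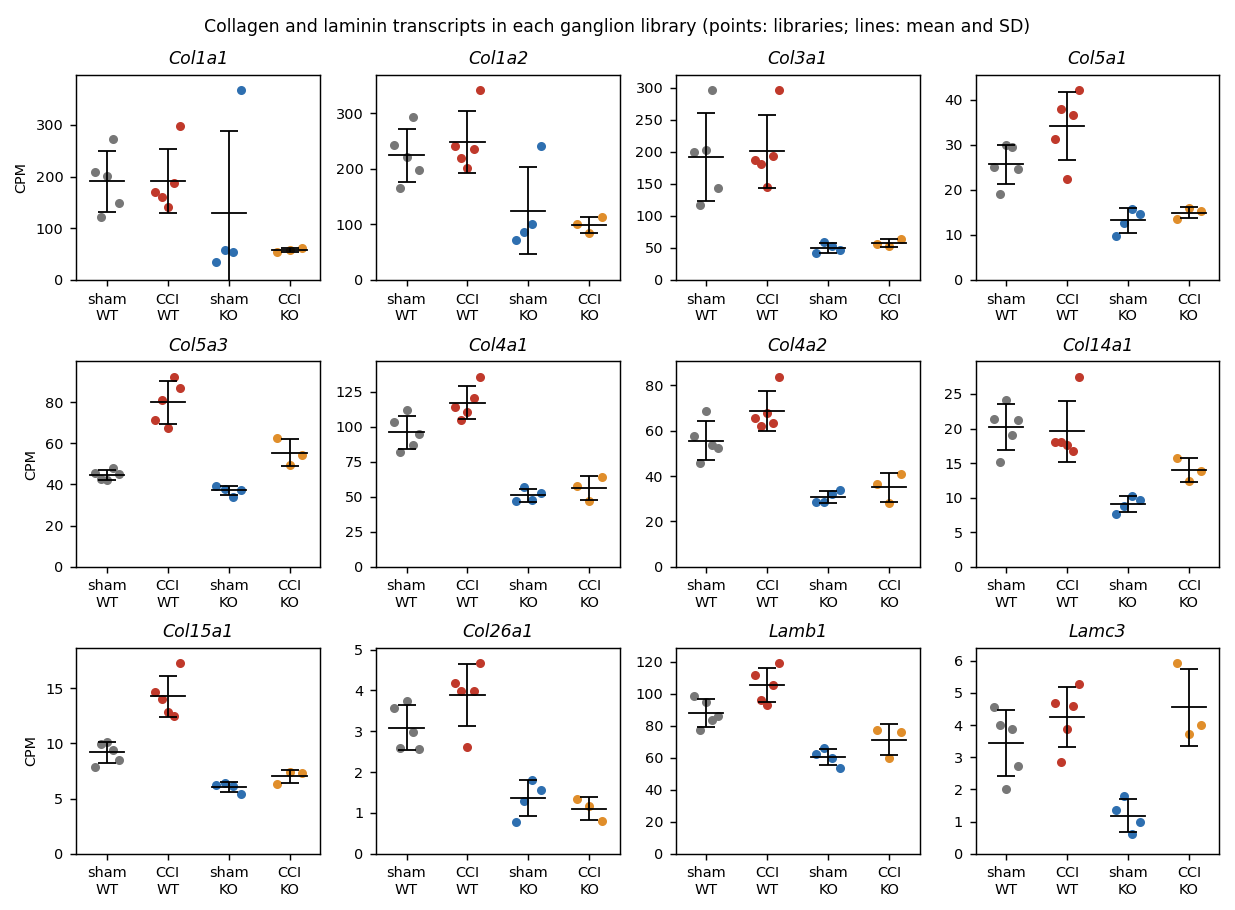
Level in CPM of 12 chains, 1 point per library, with lines for the group mean and the SD. The SD of Col1a1 in sham knockout libraries exceeds the mean, so its lower end is cut at 0. For Col4a1 the 7 knockout libraries sit between 47.1 and 64.1 CPM and the 10 wild-type libraries between 82.3 and 136 CPM.

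In the class of type VI and related collagens, 3 of 7 tested chains fell in sham (Col28a1, Col26a1 and Col6a3) and 2 after CCI (Col28a1 and Col26a1). Of these only Col6a3 is a type VI chain, so no type VI chain was called after CCI. Col28a1 (chr6:7997102-8192617), a collagen with von Willebrand factor domains found mainly in peripheral nerve, was at 41.5, 54.2, 58.0, 57.6 and 47.1 CPM in sham wild type and 43.1, 33.3, 37.7 and 39.7 CPM in sham knockout libraries, an overlap through wild-type library 1 and knockout library 1. After CCI it was at 65.4, 61.4, 58.5, 62.1 and 65.3 and 41.8, 43.9 and 49.1 CPM, with no overlap. Its values of -0.43 ± 0.09, edgeR adjusted p = 0.0172 and -0.48 ± 0.10, edgeR adjusted p = 0.0182 were small beside those of Col3a1, and 3 and 4 of the fits that left out 1 library lost the call (edgeR adjusted p up to 0.105 and 0.124).

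Col26a1 (ENSMUSG00000004415, chr5:136770613-136912063), a secreted protein with short collagenous stretches, was low but steady. It was at 3.57, 2.58, 3.75, 2.97 and 2.57 CPM in sham wild type, 0.779, 1.29, 1.81 and 1.57 in sham knockout, 4.18, 3.995, 2.61, 3.98 and 4.66 in CCI wild type and 1.35, 1.16 and 0.808 in CCI knockout libraries. No knockout library reached the level of any wild-type library, and the log2 fold change was -1.18 ± 0.26, edgeR adjusted p = 0.0219 in sham and -1.82 ± 0.29, edgeR adjusted p = 0.0045 after CCI. The sham call was lost without sham wild-type library 1 or 3 or sham knockout library 1 or 2 (edgeR adjusted p up to 0.107), whereas the CCI call held in the 17 such fits. Col6a3, the large chain of type VI microfibrils, was at 12.7, 8.85, 15.2, 20.5 and 8.33 CPM in sham wild type and 6.50, 7.22, 6.48 and 4.04 CPM in sham knockout libraries. The groups did not overlap, but its call (-1.12 ± 0.25, edgeR adjusted p = 0.0422) lay at the threshold and was lost in 13 of 17 fits without 1 library (edgeR adjusted p up to 0.13). Col6a1 and Col6a2, its partners, ranged from 18.7 to 53.5 and 18.1 to 58.1 CPM in sham wild type to 9.42 to 18.3 and 11.9 to 16.4 CPM in sham knockout libraries. Those ranges were also apart, with values of -1.20 ± 0.35 and -1.24 ± 0.32 that did not pass (edgeR adjusted p = 0.15 and 0.0961). For the mean effect Col6a1 passed (-1.07 ± 0.26, edgeR adjusted p = 0.0466), and 14 of 17 fits without 1 library lost that call (edgeR adjusted p up to 0.139).

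Among 9 fibril-associated chains, 1 fell in sham and 0 after CCI. Col14a1 (chr15:55171140-55384199), which sits on the surface of type I fibrils, was at 21.4, 15.1, 24.1, 19.1 and 21.2 CPM in sham wild type against 7.64, 8.82, 10.2 and 9.72 CPM in sham knockout libraries. After CCI it was at 18.0, 18.1, 17.6, 16.8 and 27.5 CPM in wild type and 15.8, 12.4 and 13.8 CPM in knockout libraries. The genotypes were apart in both treatments, at -1.15 ± 0.15, edgeR adjusted p = 0.000206 in sham and -0.49 ± 0.16, edgeR adjusted p = 0.224 after CCI. The sham call held in the 24 alternative fits, including the fit without sham knockout libraries 1 and 2. Col9a3, a type IX chain, passed the threshold for the mean effect (-0.65 ± 0.17, edgeR adjusted p = 0.0324) and lost it in 8 of 17 fits without 1 library (edgeR adjusted p up to 0.121). Col9a2, the chain of this class with the highest level per kb, was at 7.22 to 12.7 CPM in sham wild type and 4.66 to 13.8 CPM in sham knockout libraries, which overlapped (-0.35 ± 0.23, edgeR adjusted p = 0.663).

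Of the short-chain collagens, Col8a1 (chr16:57444621-57575100), a chain made by vessels and connective tissue, fell in sham. It was at 21.4, 15.3, 19.6, 23.5 and 13.7 CPM in wild type and 8.81, 9.90, 7.60 and 9.62 CPM in knockout libraries, which were apart (-1.06 ± 0.21, edgeR adjusted p = 0.0193). Its call was lost without sham wild-type library 1 or sham knockout library 1 or 2 (edgeR adjusted p up to 0.0907), and after CCI the value was -0.78 ± 0.23, edgeR adjusted p = 0.175. Col7a1, the anchoring fibril collagen of skin, was at 0.558 to 3.27 CPM over all libraries, with 0.65 ± 0.37, edgeR adjusted p = 0.547 in sham.

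Col15a1 (chr4:47207582-47313179), a multiplexin of the outer face of basement membranes that takes part in nerve maturation, was at 7.86, 9.96, 10.1, 9.40 and 8.52 CPM in sham wild type and 6.18, 6.41, 6.17 and 5.43 CPM in sham knockout libraries. After CCI it was at 14.7, 14.0, 12.9, 12.4 and 17.2 CPM in wild type and 6.36, 7.43 and 7.30 CPM in knockout libraries. The knockout libraries were lower without overlap in both treatments, at -0.60 ± 0.13, edgeR adjusted p = 0.0175 in sham and -1.02 ± 0.14, edgeR adjusted p = 0.000689 after CCI. Leaving out sham knockout library 1 took the sham call to -0.61, edgeR adjusted p = 0.0543. It was also lost without sham knockout libraries 1 and 2 together (edgeR adjusted p = 0.149), with the replicate block (edgeR adjusted p = 0.0553) and with limma (adjusted p = 0.076). The CCI call held in all 24 alternative fits. The other multiplexin, Col18a1, the source of endostatin, was at 22.8 ± 8.44 CPM in sham wild type (SD, n = 5) and 22.8 ± 1.86 CPM in sham knockout libraries (n = 4), a difference of -0.00 ± 0.21 with a 95% interval of -0.46 to 0.45. After CCI Col18a1 was at 27.6 to 45.6 CPM in wild type and 25.9 to 34.8 CPM in knockout libraries. Those groups overlapped, and the log2 fold change of -0.37 was not called. The test of Col15a1 against Col18a1 was not made.

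Among the 4 transmembrane collagens, Col23a1 (chr11:51180566-51474745) fell. It was at 38.4, 37.2, 38.1, 40.4 and 42.0 CPM in sham wild type and 27.7, 25.6, 34.2 and 28.9 CPM in sham knockout libraries, and at 44.5, 39.5, 39.7, 48.3 and 51.0 and 34.6, 34.3 and 31.5 CPM after CCI. The ranges were narrow and apart in both treatments. The log2 values were -0.43 ± 0.09, edgeR adjusted p = 0.0142 and -0.41 ± 0.10, edgeR adjusted p = 0.0388, and 3 and 9 of 17 fits without 1 library lost these calls (edgeR adjusted p up to 0.0962 and 0.256). The other 3 (Col13a1, Col17a1 and Col25a1) were called in no comparison.

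Of 11 laminin chains, 3 fell in sham (Lamb1, Lamc1 and Lamc3) and 2 after CCI (Lamb1 and Lamc1). Lamb1 (ENSMUSG00000002900, chr12:31315030-31379658), the beta chain of Schwann cell and vessel laminins, was at 98.4, 77.0, 94.5, 83.2 and 86.1 CPM in sham wild type and 62.2, 65.7, 59.7 and 53.5 CPM in sham knockout libraries. After CCI it was at 112, 96.2, 93.1, 106 and 119 CPM in wild type and 77.4, 60.03 and 75.9 CPM in knockout libraries. Genotypes were apart in each treatment, at -0.54 ± 0.09, edgeR adjusted p = 0.00235 and -0.56 ± 0.10, edgeR adjusted p = 0.00641. The sham call held in the 24 alternative fits, and the CCI call was lost without CCI knockout library 3 (-0.45, edgeR adjusted p = 0.0835). Lamc1 (chr1:153094597-153208774), the gamma chain of most laminins, went from 44.1, 39.2, 53.3, 51.4 and 44.8 CPM to 29.1, 36.6, 31.3 and 33.3 CPM in sham. After CCI it went from 50.7, 58.4, 45.3, 54.6 and 61.7 CPM to 38.9, 29.4 and 39.7 CPM. These groups were apart too (-0.52 ± 0.11, edgeR adjusted p = 0.0172 in sham and -0.59 ± 0.12, edgeR adjusted p = 0.016 after CCI), and the calls were lost without sham wild-type library 4 or sham knockout library 1 in sham and without CCI knockout library 3 after CCI (edgeR adjusted p up to 0.0907 and 0.15).

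Lamb2, the other abundant beta chain, was at 26.5 to 42.1 CPM in sham wild type and 23.7 to 32.6 CPM in sham knockout libraries. These overlapped, and the difference of -0.21 ± 0.14 (95% interval -0.52 to 0.10) did not pass. After CCI Lamb2 was at 34.9 to 53.7 CPM in wild type and 27.1 to 32.3 CPM in knockout libraries. Those groups were apart, but Lamb2 was not called there either. Among alpha chains, 0 of 5 were called in either treatment. Lama2 ranged over 13.5 to 26.4 CPM against 13.4 to 17.4 CPM in sham, and 20.1 to 29.3 CPM against 14.4 to 15.6 CPM after CCI, wild type first. It lay just outside the threshold after CCI (-0.74 ± 0.17, edgeR adjusted p = 0.0504). For the mean effect Lama2 (-0.60 ± 0.12, edgeR adjusted p = 0.00452), Lama4 (-0.46 ± 0.09, edgeR adjusted p = 0.00561) and Lama5 (-0.65 ± 0.15, edgeR adjusted p = 0.0172), a chain of mature vessel and epithelial laminin, passed. Lama5 lost the call without CCI knockout library 3 or 4 (edgeR adjusted p up to 0.0587), and Lama2 without sham knockout libraries 1 and 2 together (-0.58 ± 0.14, edgeR adjusted p = 0.053).

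Lamc3 (ENSMUSG00000026840, chr2:31777258-31839117), a gamma chain known from the brain surface, retina and skin, took another course. In wild type it was at 4.57, 3.996, 2.02, 3.88 and 2.73 CPM after sham and 4.68, 2.84, 3.88, 4.59 and 5.26 CPM after CCI. In knockout libraries it was at 1.36, 1.80, 0.61 and 0.977 CPM after sham and 5.91, 3.71 and 4.01 CPM after CCI. Only the sham knockout group was low, below each library of the other 3 groups. The sham genotype difference was -1.53 ± 0.29, edgeR adjusted p = 0.0084, the CCI difference 0.10 ± 0.30 (95% interval -0.54 to 0.73), and injury raised Lamc3 in knockout libraries by 1.94 ± 0.32, edgeR adjusted p = 0.016. In wild type the injury value was 0.31 ± 0.26, edgeR adjusted p = 0.71. The test of the difference between the injury effects gave 1.63 ± 0.41, edgeR adjusted p = 0.502, so a difference between genotypes in the injury effect was not shown. The sham genotype call held without sham knockout libraries 1 and 2 together (-2.10 ± 0.35, edgeR adjusted p = 0.00907) and was not made by limma. The injury call was lost without sham knockout library 3 (1.72, edgeR adjusted p = 0.06) or CCI knockout library 2 (1.70, edgeR adjusted p = 0.291). It was also lost with limma (1.83, adjusted p = 0.0549), and without sham knockout libraries 1 and 2 together it was 2.51 ± 0.38, edgeR adjusted p = 0.00196.

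Markers of other cells moved with genotype. The 8 markers of myelinating Schwann cells summed to 9765 to 14612 CPM in the 10 wild-type and 4458 to 7193 CPM in the 7 knockout-labelled libraries, without overlap. Of the 8, 6 fell in sham (0.743% of all genes were called lower) and 4 after CCI (0.501%), with medians of -0.77 and -0.57. Fibroblast markers were all negative in sham, 10 of 10 with a median of -0.49 beside -0.46 for the chains, and 9 of 10 were negative after CCI with a median of -0.24. Their calls were 2 of 10 in sham (Mfap5 and Clec3b) and 1 after CCI, all lower, against 0.743% and 0.501% of all genes. Their summed levels overlapped, at 1080 to 1708 CPM in wild type and 1116 to 1816 CPM in knockout libraries after sham, and 1357 to 2384 and 1335 to 1490 CPM after CCI. Pericyte and smooth muscle markers were negative for 8 of 8 in sham (median -0.50) and 5 of 8 after CCI (-0.28), with 0 called in either. Endothelial markers were negative for 8 of 8 in sham (median -0.41) and 6 of 8 after CCI (-0.14). In sham 1 of 8, Emcn, was called lower, against 0.743% of all genes, and after CCI 0 were called. The summed levels of both vessel lists overlapped between genotypes, at 135 to 443 against 119 to 169 CPM for pericytes and 108 to 151 against 91.0 to 111 CPM for endothelium in sham, and at 157 to 174 against 118 to 196 CPM and 135 to 152 against 113 to 147 CPM after CCI.

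Satellite glia markers summed to 4159 to 4557 against 3278 to 4043 CPM in sham, with a median of -0.12 and 1 of 5 (Apoe) lower (0.743% of all genes). After CCI they summed to 4719 to 5044 against 4095 to 4455 CPM, with a median of -0.19 and 0 called. The satellite glia sums were apart between genotypes in both treatments. Macrophage markers were positive for 7 of 8 in sham (median 0.42) and 2 of 8 after CCI (-0.03), and perineurial markers had medians of -0.05 and -0.24. In sham and after CCI, 0 members of the macrophage, perineurial, non-myelinating Schwann, skeletal muscle and sensory neuron lists were called. Of the 9 cartilage and bone markers tested, 1 was called lower in sham (0.743% of all genes) and 0 after CCI (0.501%). Sensory neuron markers were positive for 9 of 10 in sham (median 0.05) and after CCI (0.10). After CCI their sums were apart, at 12568 to 13302 CPM in wild type and 13488 to 14626 CPM in knockout libraries. Non-myelinating Schwann sums were also apart after CCI, at 1220 to 1295 against 1321 to 1375 CPM. In sham the sums of both lists overlapped. No defining marker of these lists was at 0 in each library except 1 cartilage and bone marker in 3 of the 4 groups. The part of these cell markers in the fall of the chains was not tested.

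After injury, 4 of 54 chains (7.41%) rose in wild type and 0 fell, where 2.34% of all genes rose, 0.713% fell and 3.06% were called either way. The median log2 fold change was 0.26 against -0.01 for all genes tested, and 36 of 54 chains had positive values. The groups were apart for 6 chains, all higher (3.44% of all genes, with 1.4% apart and lower). Col5a3 (ENSMUSG00000004098, chr9:20681337-20726418), a type V chain that Schwann cells make, had the smallest p. It was at 45.7, 42.6, 42.1, 47.9 and 45.1 CPM after sham and 71.5, 81.0, 67.7, 92.4 and 86.6 CPM after CCI in wild type, and at 39.2, 38.0, 33.9 and 37.5 and 62.4, 49.4 and 54.4 CPM in knockout libraries. Injured libraries were higher than sham libraries within each genotype without overlap, and the values were 0.84 ± 0.08, edgeR adjusted p = 2.97e-06 in wild type and 0.58 ± 0.10, edgeR adjusted p = 0.016 in knockout libraries. The wild-type call held in the 24 alternative fits, and the knockout call was lost without sham knockout library 2 or 3 or CCI knockout library 2 or 4 (edgeR adjusted p up to 0.318). Between genotypes Col5a3 fell after CCI (-0.53 ± 0.09, edgeR adjusted p = 0.00641, lost without CCI knockout library 3 at -0.45, edgeR adjusted p = 0.0936), with -0.27 ± 0.08, edgeR adjusted p = 0.146 in sham. The interaction was -0.26 ± 0.12, edgeR adjusted p = 0.848.

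Col27a1 (chr4:63132241-63253228), a fibrillar collagen first known from cartilage, was at 3.36, 4.38, 5.65, 4.44 and 4.79 CPM after sham and 7.16, 7.26, 6.10, 8.97 and 8.76 CPM after CCI in wild type (0.76 ± 0.16, edgeR adjusted p = 0.00827). In knockout libraries it went from 3.76, 4.13, 2.80 and 3.54 to 5.55, 4.51 and 5.84 CPM, which were apart but not called (0.57 ± 0.20, edgeR adjusted p = 0.351). Col15a1, with the values given above, rose in wild type (0.64 ± 0.12, edgeR adjusted p = 0.00223), and in knockout libraries the difference was 0.22 ± 0.14, edgeR adjusted p = 0.741. The interaction of Col15a1 was -0.42 ± 0.19, edgeR adjusted p = 0.831, so the injury effects were not shown to differ. Lamb3 (chr1:192890007-193027705), a chain of epithelial laminin, was the lowest of the called chains. It was at 0.11, 0.436, 0.202, 0.123 and 0.36 CPM after sham and 0.759, 1.87, 1.02, 2.74 and 1.84 CPM after CCI in wild type, and at 1.12, 0.771, 0.571 and 0.447 and 1.84, 0.58 and 0.567 CPM in knockout libraries. Wild-type groups were apart (2.73 ± 0.48, edgeR adjusted p = 0.00135) and knockout groups overlapped (0.45 ± 0.53, edgeR adjusted p = 0.904). The 4 sham knockout libraries all lay above the 5 sham wild-type libraries (1.56 ± 0.49, edgeR adjusted p = 0.144), with libraries 1 and 2, those of raised injury markers, the higher of the 4. Without those 2 libraries the sham difference was 1.05 ± 0.59, edgeR adjusted p = 0.721. Lama3, an alpha chain of the same laminin, was not called in any comparison.

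In knockout-labelled libraries 2 of 54 chains rose after injury (Col5a3 and Lamc3) and 0 fell, where 0.0709% of all genes rose, 0.0125% fell and 0.0834% were called either way. The median was 0.17 against -0.01 for all genes, and 8 chains were apart, all higher (4.41% of all genes, with 3.15% apart and lower). Sham knockout libraries 1 and 2, with injury markers of 1287 and 1104 CPM, lay within the 1028 to 1659 CPM of the CCI knockout libraries. Without them 2 chains were called again, Lamc3 and Col5a3 (0.63 ± 0.12, edgeR adjusted p = 0.0112), where 0.578% of all genes were called either way. The injury comparisons in the 2 genotypes share no library, but they share each gene's estimate of spread. Their signs were the same for 33 of 54 chains (61.1%) against 58.1% of all genes, and 1 chain, Col5a3, was called in both. The interaction was called for 0 of 54 chains (0% of all genes) by edgeR, and also by DESeq2 and limma, while 9 of 54 chains and 1408 of 23972 genes had an unadjusted p under 0.05. Col18a1, the chain of its class with the highest level per kb, was at 21.2, 16.8, 37.6, 19.5 and 18.9 CPM in sham and 34.8, 37.4, 27.6, 45.6 and 41.6 CPM in CCI wild type. Sham wild-type library 3 lay among the injured libraries, and the value did not pass (0.71 ± 0.20, edgeR adjusted p = 0.0708).

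**Figure D5:**
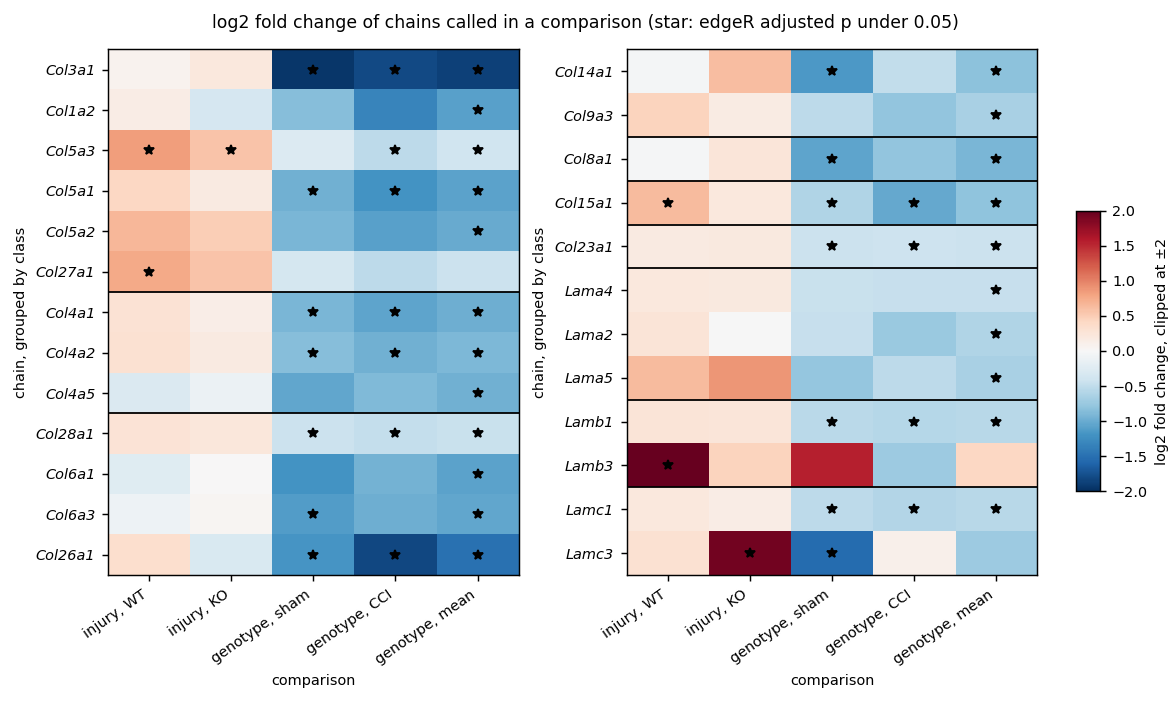
Log2 fold change of the 25 chains called in at least 1 of these comparisons (rows, by class) in both injury comparisons, both genotype comparisons and the mean genotype effect (columns), with colours clipped at 2 to each side and a star where edgeR's adjusted p was under 0.05. The genotype columns are mostly negative, with 14, 11 and 22 stars, and the injury columns hold 4 and 2.

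The ratio between chains that assemble together varied little for 2 of the pairs examined. Per kb, Col4a1 stood at 1.42 to 1.90 times Col4a2 over the 17 libraries, and the SD of the log2 ratio was 0.11, against SDs of 0.54 and 0.51 for the chains' own log2 levels. Lamb1 stood at 1.70 to 2.35 times Lamc1 (SD of the log2 ratio 0.14 against 0.34 for each chain). Both ratios varied far less than the levels they are made of. These SDs span both genotypes, and a steady ratio was not shown to be particular to chains that assemble together. The spread was wider for Col6a1 over Col6a2, at 1.26 to 2.38 (SD 0.23 against 0.70 and 0.62), and for Lamb2 over Lamc1, at 1.20 to 1.93 (SD 0.20 against 0.28 and 0.34). For the low pair Col4a3 over Col4a4 the ratio, at 0.173 to 1.75 (SD 0.74), varied more than either level (0.66 and 0.49). Col1a1 stood at 0.920 to 1.78 times Col1a2 in 16 libraries and at 2.94 in sham knockout library 4 (SD over the 17 libraries 0.39 against 1.02 and 0.71). Since Col4a1 and Col4a2 start 21 bases apart by RefSeq, overlap on opposite strands by 356 bases in the annotation and were amplified without a record of the strand, reads at that overlap cannot be assigned to one of them.

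Of the 26 enzymes and chaperones that process collagen, 17 had negative genotype values in sham and 20 after CCI. In sham 2 fell (0.743% of all genes were lower), Serpinh1 (-0.83 ± 0.15, edgeR adjusted p = 0.0183), the chaperone of the procollagen helix, and Plod1 (-0.41 ± 0.09, edgeR adjusted p = 0.0219), a lysyl hydroxylase. After CCI 3 fell (0.501% of all genes), these 2 (Serpinh1 -1.07 ± 0.17, edgeR adjusted p = 0.00864; Plod1 -0.48 ± 0.10, edgeR adjusted p = 0.0187) and the prolyl isomerase Fkbp10 (-0.51 ± 0.12, edgeR adjusted p = 0.033). The list's median was -0.23 in sham and -0.24 after CCI. Injury in wild type raised Bmp1, the proteinase that trims the C-terminal propeptide (0.71 ± 0.11, edgeR adjusted p = 0.000425), and lowered Colgalt2, a collagen galactosyltransferase (-0.27 ± 0.08, edgeR adjusted p = 0.0468). For the mean genotype effect 7 of 26 were lower (1.86% of all genes).

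Other basement membrane proteins were called at 4 of 14 in sham, all lower (0.743% of all genes). These were Nid1 (-0.79 ± 0.11, edgeR adjusted p = 0.00177) and Nid2 (-0.64 ± 0.12, edgeR adjusted p = 0.011), the nidogens that bridge laminin and type IV collagen, Sparc (-0.68 ± 0.11, edgeR adjusted p = 0.00779), which binds collagen, and Fbln2 (-0.34 ± 0.07, edgeR adjusted p = 0.011), a fibulin. After CCI 4 of 14 were lower (0.501% of all genes), Nid1 (-0.85 ± 0.12, edgeR adjusted p = 0.00462), Nid2 (-0.85 ± 0.14, edgeR adjusted p = 0.00462), Sparc (-0.70 ± 0.12, edgeR adjusted p = 0.0127) and Pxdn (-0.54 ± 0.12, edgeR adjusted p = 0.0233), the peroxidasin that crosslinks type IV collagen. The medians were -0.44 and -0.56. Injury in wild type raised 3 of 14 (2.34% of all genes), Nid2 (0.66 ± 0.11, edgeR adjusted p = 0.00152), Nid1 (0.44 ± 0.10, edgeR adjusted p = 0.0248) and Pxdn (0.44 ± 0.10, edgeR adjusted p = 0.0117), and in knockout libraries 0 of 14 were called. For the mean genotype effect 6 of 14 were lower (1.86% of all genes).

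Among 18 receptors, Dag1, the dystroglycan that anchors laminin on Schwann cells, was lower in sham (-0.48 ± 0.07, edgeR adjusted p = 0.000749) and after CCI (-0.49 ± 0.08, edgeR adjusted p = 0.00425). Itga6, an integrin alpha chain for laminin, was lower in sham (-0.64 ± 0.14, edgeR adjusted p = 0.0463). These made 2 of 18 lower in sham (0.743% of all genes) and 1 of 18 after CCI (0.501%). Injury in wild type raised 3 of 18 (2.34% of all genes), Dag1 (0.39 ± 0.07, edgeR adjusted p = 0.00113), the laminin integrin Itga7 (0.86 ± 0.16, edgeR adjusted p = 0.01) and the shared integrin chain Itgb1 (0.30 ± 0.08, edgeR adjusted p = 0.0427). The platelet collagen receptor Gp6 was called lower at a level too low for a fold change, since each of the 5 CCI wild-type libraries had no read. The mean genotype effect was lower for Dag1 and Itga6 and higher for Bcam (0.25 ± 0.06, edgeR adjusted p = 0.0287), a laminin-binding surface protein. Of 12 matrix proteases and inhibitors 11 were tested, and 0 were called in sham and 1, Mmp14, after CCI (-0.50 ± 0.11, edgeR adjusted p = 0.0301). After CCI 0.501% of all genes were called lower. Injury in wild type raised 3 (2.34% of all genes), Mmp16 (1.83 ± 0.30, edgeR adjusted p = 0.00386), Mmp14 (0.36 ± 0.09, edgeR adjusted p = 0.0334) and the inhibitor Timp3 (0.30 ± 0.08, edgeR adjusted p = 0.0263). Timp3 also rose in knockout libraries (0.47 ± 0.09, edgeR adjusted p = 0.0483), where 0.0709% of all genes rose. The receptor and protease medians in sham were -0.05 and -0.13, nearer to 0 than the median of -0.46 of the chains. That difference between lists was not tested.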

How the data were processed

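Per the labels' protocols, a PicoPure kit isolated the RNA and SMART-Seq v4, which keeps no strand, amplified it. Per the submitters' processing notes, bcl2fastq 2.20.0.422 and STAR 2.7.11a were used with GRCm39. What the authors deposited are unnormalized counts of reads for each Ensembl gene. The tables are named as HTSeq counts, and the version, strand setting and annotation were not given in the sources used here. In each table, 5 summary lines were left out: reads in no gene made 4.03 to 4.55% and ambiguous reads 7.63 to 8.17%. GENCODE M39 gave symbols for 78168 of 78298 identifiers and exon lengths. Of the 55 chains, 34 share exon bases with another gene, 6 of them over 10% (Col1a2, Col4a3, Col9a3, Col10a1, Col18a1 and Lama4), which makes their counts less certain.

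All 17 libraries entered 1 edgeR quasi-likelihood fit with a mean per group, TMM scaling and filterByExpr (minimum count 10, minimum total count 15), which left 13 residual degrees of freedom and a biological coefficient of variation of 0.346. P-values were adjusted by Benjamini-Hochberg over the 23972 genes tested, at 0.05, in 6 comparisons: injury in each genotype, genotype in each treatment, their interaction and the mean genotype effect. Fold changes are log2 with the SE of this fit, levels are CPM of the TMM-scaled library, and 95% intervals use the t distribution with 13 degrees of freedom. The replicate libraries differed by far more than sampling noise, with a chi-square per degree of freedom of at least 13.7. The 24 alternative fits left out each library in turn, or sham knockout libraries 1 and 2 together, or changed the filter, scaling, test or model. The script was tested on simulated data. Software was R 4.3.3, edgeR 4.0.16, limma 3.58.1, DESeq2 1.42.0, Python 3.11.15, NumPy 2.4.6 and Matplotlib 3.10.9.

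The chains, the 4 pathway lists and the 12 marker lists were chosen with earlier results of these data known. Named with values were chains past the threshold (up to 12 per comparison, smallest p first), Col3a1, Col5a1, Col26a1 and Lamc3, the chain with the highest level per kb in each class, partner chains, and up to 4 called genes of each pathway list per comparison. Further chains were named after their values were seen where a small count called for it.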

Additional observations from a re-analysis of the deposited data

Results flagged for a closer look

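In groups of 4 or 5 libraries, the level of each named chain was checked for 1 library whose gap to the nearest other exceeds Dixon's critical value. Of 102 groups of values, 12 were past it, and chance alone passes about 1 in 20. Of these, 6 belonged to CCI wild-type library 5, the library with the highest fibroblast markers: Col1a2 at 342 CPM against 201 to 242 CPM in the other 4, Col4a2 at 83.8 against 62.1 to 67.8, Col6a2 at 40.2 against 19.6 to 25.3, Col9a2 at 17.4 against 11.8 to 12.5, Col14a1 at 27.5 against 16.8 to 18.1 and Lamb2 at 53.7 against 34.9 to 40.1. Sham knockout library 4, the library with raised Bglap and Ibsp, stood apart for Col1a1 at 368 CPM against 34.7 to 58.4 CPM and for Col1a2 at 240.7 against 72.6 to 99.9 CPM. Sham wild-type library 3 was low for Col9a2, at 7.22 CPM against 11.3 to 12.7, and high for Col18a1, at 37.6 against 16.8 to 21.2. CCI wild-type library 2 was low for Col9a3, at 3.38 CPM against 5.06 to 5.52, and high for the barely detected Col4a6, at 0.244 against 0 to 0.0620.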

How the results depend on the processing

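The 53 calls of a chain in a comparison kept their direction in all 1272 alternative values, and 31 of the 53 kept the call in each fit that left out 1 library. Counts of called chains moved by more than 1.5 times as follows, and the cause was not tested. For injury in wild type (4), no low-count filter gave 12, DESeq2 8 and limma 12, and leaving out 1 library gave 4 to 10 (8 without sham wild-type library 3, 10 without CCI wild-type library 3). For injury in knockout libraries (2), no filter gave 4, DESeq2 4 and limma 1, and leaving out 1 library 0 to 2 (0 without sham knockout library 3 or CCI knockout library 2, 1 without sham knockout library 2 or CCI knockout library 4). For genotype in sham (14), DESeq2 gave 22 and the fit without sham knockout libraries 1 and 2 together 4 (Col4a1, Col14a1, Lamb1 and Lamc3), and leaving out 1 library 8 to 18 (8 without sham knockout library 1 or 2). For genotype in CCI (11), no filter gave 18, DESeq2 17 and limma 17, and leaving out 1 library 4 to 15 (7 without CCI knockout library 2, 4 without CCI knockout library 3). The interaction (0) gave 1 without a filter and 0 to 0 when 1 library was left out. The mean genotype effect (22) stayed between 18 and 23.

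Libraries of the groups share replicate numbers in the labels, but the numbers did not pair them: of 22 same-numbered pairs, 1 had a correlation of deviations over 0.1 (range -0.01 to 0.12), and 6 of 17 libraries correlated best with their own number. With the replicate number as a block the counts were 5, 2, 10, 9, 0 and 20 chains, in the order above. Chains under about 1 CPM, such as Lamb3 and Col4a6, rest on few reads.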

Other observations

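Each knockout-labelled library was set against the wild-type libraries of its treatment. Of the 54 tested chains, 27 to 30 lay below all 5 wild-type libraries in each of the 4 sham knockout libraries, and 31 to 34 in each of the 3 CCI knockout libraries. The shares were 50 to 63.0% of the chains, against 16.7 to 21.1% of all genes tested in the same libraries. Sham knockout libraries 1 and 2, with raised injury markers, had 27 and 29 such chains, and libraries 3 and 4, without them, had 30 and 29.

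Of chains outside the called sets, 5 had no read in at least 1 library: Col6a6 in 7, Col4a6 and Col9a1 in 3 each, and Col6a4 and Col20a1 in 1 each. Col9a1, a type IX chain of cartilage, was at 0.0339, 0.0184, 0 and 0 CPM in sham knockout libraries against 0.0819 to 0.436 CPM in sham wild type, which were apart but not called (-3.64 ± 1.26, edgeR adjusted p = 0.196). Col16a1, a fibril-associated chain, was at 19.96 to 23.6 CPM in sham and 25.0 to 33.1 CPM in CCI wild type, apart and just outside the threshold (0.37 ± 0.10, edgeR adjusted p = 0.0524). Both were named after their values were seen. In the genome 3 pairs of type IV genes lie head to head (Col4a1 and Col4a2, Col4a3 and Col4a4, Col4a5 and Col4a6), and Col3a1 and Col5a2, both lower in knockout libraries for the mean genotype effect, lie tail to tail on chromosome 1 with 16713 bases between them.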
